A study of Homo sapiens with 48 samples.

Results

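Of the 58302 genes in the deposited count table, 8 encode mRNAs that other work has reported as cut by IRE1, namely BLOC1S1, CD59, HGSNAT, SCARA3, COL6A1, GALNT10, SPARC and TNFRSF10B. They were chosen by symbol from that earlier literature, and all 8 were found. They were measured in AMO1, an established human multiple myeloma line derived from a plasmacytoma, in clones that carry shRNAs turned on by doxycycline (Dox). The genotype labels name 3 hairpins per construct, against IRE1 (sh7,8,9) in shIRE1 clones 1 and 3 and against XBP1 (sh4,6,7) in shXBP1 clones 1 and 18. Every clone was grown in triplicate flasks and taken at 0, 24, 48 and 72 h of 0.2 µg/ml Dox, and its 0 h libraries served as its control, which gave 16 groups of 3 and 48 libraries. Each clone is descended from 1 cell, and a non-targeting shRNA was not analysed here, so that effects of Dox or of hairpin expression as such cannot be told apart from loss of the target.

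IRE1, encoded by ERN1, is a kinase and endoribonuclease of the endoplasmic reticulum (ER) membrane that senses unfolded protein. When active it excises an intron from XBP1 mRNA, which then encodes the transcription factor XBP1s, and it cuts other mRNAs at the ER, a process called regulated IRE1-dependent decay (RIDD). In plasma cells, which secrete large amounts of antibody, the pathway is constitutively engaged. The comparison of shIRE1 with shXBP1 asks whether these mRNAs move apart when the nuclease is depleted and when only its main product is depleted with the nuclease left in place. The counts cover total XBP1 mRNA, so splicing was not measured.

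IRE1 is known to cut in the loop of small stem-loops, and the sequences below show where such an element stands in members. The search was for a loop of 7 bases, CNGCAGN, closed by at least 4 uninterrupted Watson-Crick pairs, on the mRNA strand of the canonical GENCODE 44 transcript (GRCh38). It was found in the coding part of BLOC1S1 (chr12:55719583-55719601, plus strand), CD59 (chr11:33717453-33717467, minus strand) and COL6A1 (chr21:46003569-46003583, plus strand), and in the unspliced XBP1 mRNA at both ends of the excised intron (chr22:28796143-28796161 and chr22:28796116-28796136, minus strand). Capitals mark the loop, and the lower case bases pair to form the stem.
BLOC1S1: gggcagCTGCAGTctgccc
CD59: tagcCTGCAGTgcta
COL6A1: gggcCAGCAGCgccc
XBP1, first site: ctgagtCCGCAGCactcag
XBP1, second site: tgcacctCTGCAGCaggtgca

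BLOC1S1 had 6 stem pairs, as did the first XBP1 site, the second XBP1 site had 7, and CD59 and COL6A1 had 4. Such an element stood in 3.55% of 20046 canonical coding transcripts. Among transcripts of similar length to the member's own, the share was 1.08% for BLOC1S1, 5.92% for CD59 and 4.18% for COL6A1. No such loop closed by a stem of that length was found in HGSNAT, SCARA3, GALNT10, SPARC or TNFRSF10B. The bare word CTGCAG occurred 3 times in BLOC1S1, 4 in CD59, 6 in HGSNAT, 8 in SCARA3, 7 in COL6A1, 6 in GALNT10, 2 in SPARC and 0 times in TNFRSF10B, and 82.1% of all the transcripts held it at least once.

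Before any change is read, the libraries were compared with their clone labels. Genes were taken whose 0 and 24 h libraries did not overlap between the clones of an shRNA and differed by at least 1 on the log2 scale at both times. Each library was placed between the clones, with 1 for clone 1 and 0 for the other clone. For shIRE1 there were 19 such genes. The 3 libraries labelled shIRE1 clone 1, 72 h lay at 0.0442 to 0.075, with 1 of 19 genes nearer to clone 1. The 3 labelled shIRE1 clone 3, 48 h lay at 1.02 to 1.12, with 18 of 19 nearer to clone 1. TLR7, one of the 19 and chosen after its values were seen, stood at 2.72 ± 0.247 CPM (read counts scaled by TMM to a common library size) in the libraries labelled clone 1, 48 h but 23.7 ± 0.285 in those labelled clone 1, 72 h, and at 2.74 ± 0.472 in those labelled clone 3, 48 h but 30.0 ± 1.80 in those labelled clone 3, 72 h (SD, n = 3). Both groups of 3 thus went against their clone labels at these genes. Across all 13469 genes of at least 1 CPM the closest late groups were those sharing a label, with correlations of 0.998 for clone 1 at 48 and 72 h and 0.997 for clone 3 (genes are not independent replicates). For shXBP1, with 460 genes, 1 library, replicate 3 of the group labelled clone 18 at 72 h, lay at 0.928, and the others lay with their labels. Groups were kept as labelled. How these labels arose was not tested, and whether clone or time is off in the shIRE1 libraries cannot be told apart from the files.

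**Figure D1:**
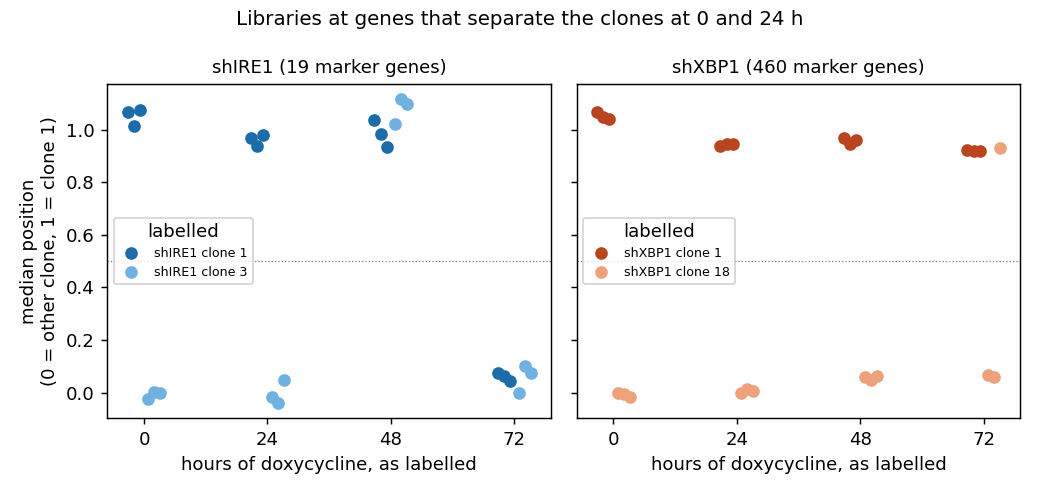
Median position of each library (y axis, no unit) between the clones of an shRNA at the genes that separate them at 0 and 24 h, against labelled hours of Dox (x axis); each point is 1 library, coloured by its labelled clone. The libraries labelled shIRE1 clone 1 at 72 h lie near 0, those labelled shIRE1 clone 3 at 48 h near 1, and 1 library labelled shXBP1 clone 18 at 72 h at 0.928.

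Late changes are therefore given first as the mean of the 4 groups labelled 48 and 72 h of an shRNA against the mean of its 0 h groups, called the late change below. This mean is the same whichever of the 4 groups is which, and it was chosen after the data were seen. Changes are on the log2 scale with the standard error (SE) of the edgeR quasi-likelihood fit, and a gene was called, or rose or fell, at a Benjamini-Hochberg adjusted p under 0.05 over all genes tested. For single times, the shIRE1 changes whose group means do not rest on the doubted libraries are those at 24 h in both clones. They also include 48 h in clone 1 and 72 h in clone 3. Their SE and p-values still draw on all libraries of the fit, the doubted ones included. All differences from shXBP1 at 72 h, also those with shIRE1 clone 3 alone, take in the doubted library of shXBP1 clone 18. Those with clone 3 alone were not fitted without that library. The targeted gene fell in all clones, but ERN1 fell less in shIRE1 clone 1 than in clone 3. At 24 h ERN1 changed by -0.27 in clone 1 (mean 152 to 127 CPM) and by -1.60 in clone 3 (438 to 145 CPM). Its change was -0.66 at 48 h in clone 1 and -1.82 at 72 h in clone 3. ERN1 changed late by -1.22 in shIRE1 and XBP1 by -2.16 in shXBP1 (log2, edgeR quasi-likelihood test, adjusted p = 1.57e-32 and 7.17e-34), and every library after Dox was below every 0 h library of its clone. XBP1 also changed in shIRE1, by -0.65. ERN1 changed by 0.20 in shXBP1, rising in clone 1 (0.76, 0.62 and 0.72, at 24, 48 and 72 h) and falling late in clone 18 (-0.04, -0.29 and -0.29). Totals ran from 19177855 to 40767202 counts per library. Plasma cell markers such as SDC1 were high throughout, with 8 markers summing to 7367 to 20800 CPM, while the B cell markers summed to 1.94 to 14.5 CPM, the T cell markers to 4.62 to 17.3, the myeloid markers to 0.118 to 0.822 and the stromal markers to 0.0881 to 1.83. CR2 held up to 504 counts, MS4A1 72, CD3E 648 and COL1A1 44, and PAX5, CD3D, CD2 and DCN at most 1.

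**Figure D2:**
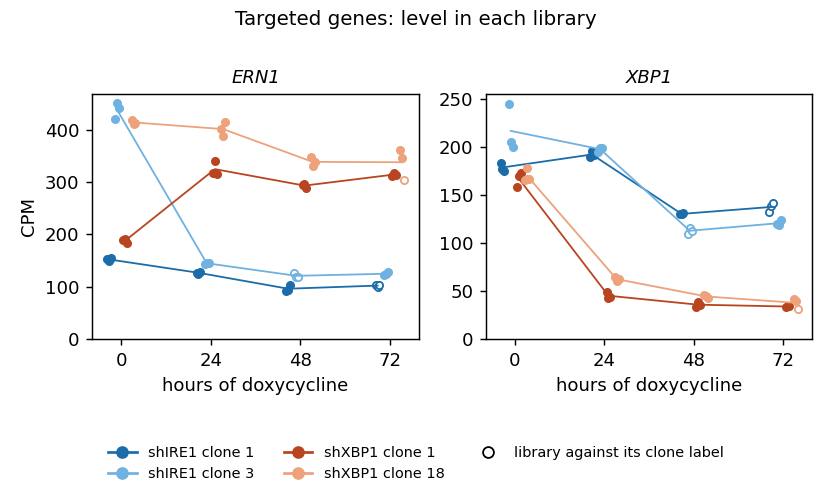
CPM (y axis, linear from 0) of ERN1 and XBP1 against labelled hours of Dox (x axis); each point is 1 library, lines join group means, and open points are libraries against their clone label. At 0 h ERN1 stands at 152 and 438 in the shIRE1 clone 1 and clone 3 means.

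At 0 h the members covered a wide range. Per kilobase of exon, the group means over the 4 clones were 34.7 to 43.2 CPM for TNFRSF10B, 25.8 to 31.6 for CD59, 10.6 to 16.1 for BLOC1S1, 8.92 to 10.2 for GALNT10 and 1.05 to 2.90 for HGSNAT. SPARC lay at 0.0409 to 0.0915 and COL6A1 at 0.0268 to 0.101 on the same scale, and these ranges overlapped. Those of BLOC1S1 and GALNT10 lay close together without overlap. SCARA3, a scavenger receptor-like protein, had at most 3 counts in any library and was never tested, so no change of it was detectable at this depth.

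**Figure D3:**
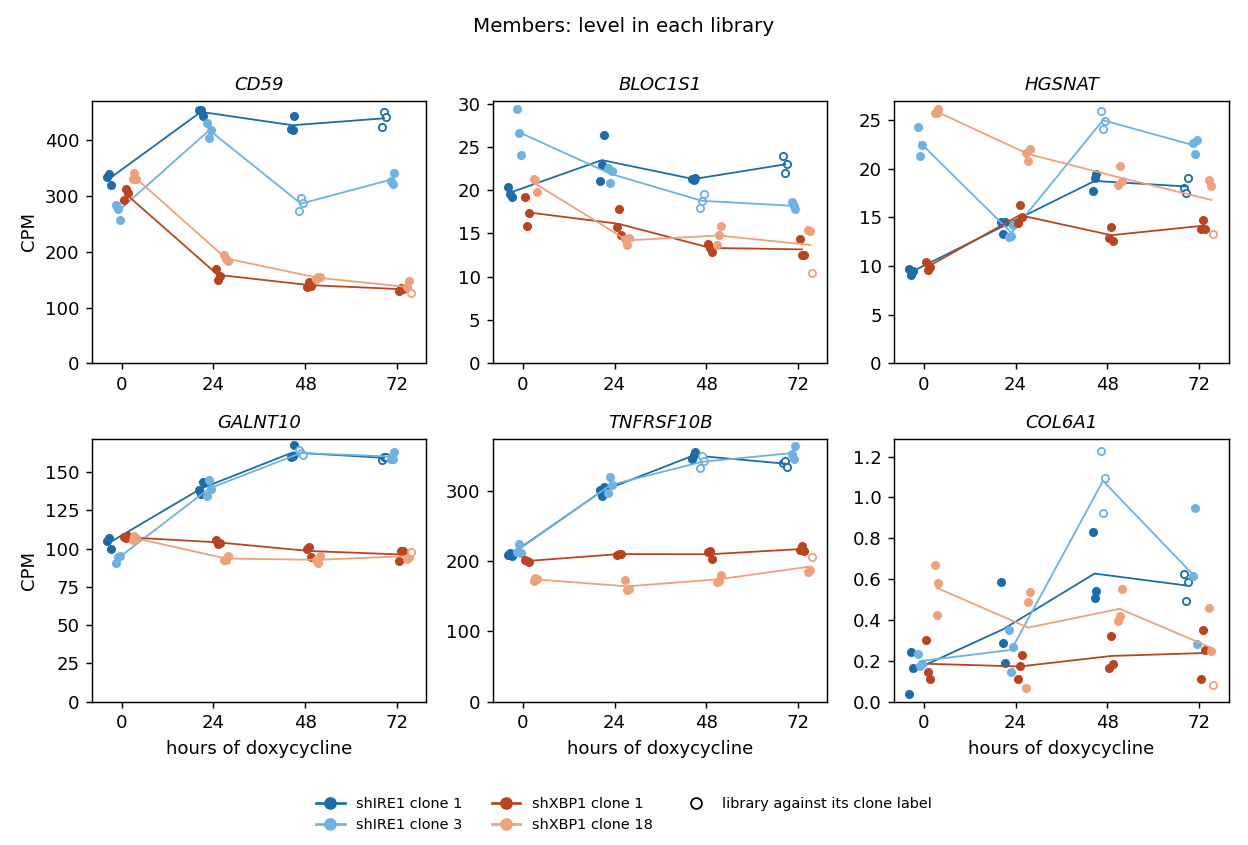
CPM (y axis, linear from 0) of the 6 members described most closely, against labelled hours of Dox (x axis); each point is 1 library, lines join group means, colours are clones and open points are libraries against their clone label. CD59, GALNT10 and TNFRSF10B separate blue (shIRE1) from red (shXBP1) after Dox, while HGSNAT separates by clone at 0 h.

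After loss of IRE1, 5 of the 7 members tested rose late and 2 fell, with 69.2% of all genes called, 35.8% higher and 33.4% lower by edgeR. After loss of XBP1, 1 rose and 3 fell, with 37.5% of all genes called, 19.6% higher and 17.9% lower. From 24 h to the late groups, 4 members rose and 3 fell in shIRE1 (43.3% of all genes called, 21.4% higher and 21.9% lower), and 1 rose and 2 fell in shXBP1 (6.47% of all genes called, 3.18% higher and 3.29% lower). In the difference of the late changes, shIRE1 minus shXBP1, 6 were higher and 1 was lower, with 60.9% of all genes called, 31.1% higher and 29.8% lower, each as a share of all genes tested. The median difference over the 7 was 0.62 on the log2 scale, and over all genes 0.04. Of all genes tested, 1.85% had a higher difference than COL6A1, 5.02% than CD59, 13.3% than GALNT10, 21.1% than TNFRSF10B, 23.5% than HGSNAT, 35.2% than BLOC1S1 and 96.6% than SPARC. The other member, SCARA3, did not pass the filter on low counts. COL6A1 and SPARC, at the top and bottom of this order and included in the late counts above, rest on few counts. Over the 3 libraries at 0 h they had 14 and 27 in shIRE1 clone 1, and 15 and 32 in shIRE1 clone 3. With replicate 3 of shXBP1 clone 18 at 72 h left out, the 7 late differences were between -1.33 (SPARC) and 2.01 (COL6A1) and all passed. They also passed with each library left out in turn. Of the 3 tested members with a stem-loop of the kind printed above, CD59 and COL6A1 rose late in shIRE1 and BLOC1S1 fell. Of the 4 without one, GALNT10, TNFRSF10B and HGSNAT rose and SPARC fell. In bulk samples such as these, fewer cells of a type and less RNA per cell cannot be told apart. The comparisons at different times share the 0 h libraries of each clone. At 24 h the group means rest on none of the doubted libraries, though the spread was estimated from all 48. There 4 members were higher in shIRE1 than in shXBP1, 1 was lower and 2 were not called (38.7% of all genes called, 19.1% higher and 19.7% lower). At 48 h and at 72 h, as labelled, 6 were higher and 1 lower, with 56.9% of all genes called, 28.9% higher and 28% lower at 48 h and 55.3% of all genes called, 28% higher and 27.4% lower at 72 h.

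**Figure D4:**
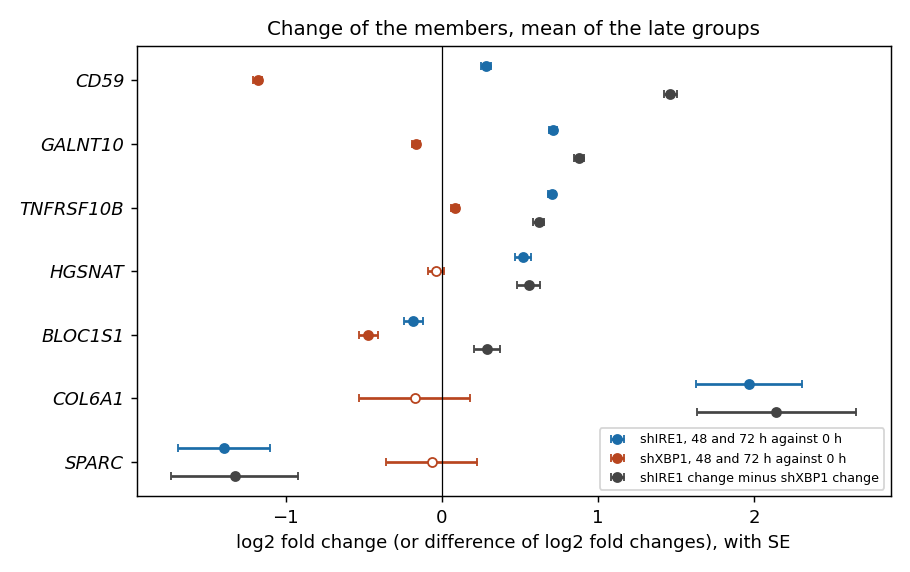
Late log2 fold change of the 7 tested members (x axis, log2 scale) in shIRE1 and shXBP1 and their difference, with the standard error of the edgeR fit; filled points passed an adjusted p of 0.05 and open points did not. CD59 lies at 0.28 in shIRE1 and -1.18 in shXBP1, and SPARC is the member with a negative difference (-1.33).

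CD59, the membrane protein that blocks the terminal step of complement attack, rose in shIRE1 and fell in shXBP1. In shIRE1 clone 1, CD59 stood at 333, 339.7 and 320.3 CPM at 0 h, 455, 453 and 444 at 24 h, 419.7, 418 and 443 at 48 h and 425, 452 and 442 at 72 h. The shIRE1 clone 3 libraries held CD59 at 283, 276 and 257 CPM at 0 h, 431, 404 and 419 at 24 h, 274, 297 and 288 at 48 h and 328, 321 and 342 at 72 h. As labelled, all shIRE1 libraries after Dox lay above their 0 h libraries, except that those labelled clone 3, 48 h overlapped them. At the clone marker genes the latter lay with clone 1. Set against the 0 h libraries of clone 1, at 320.3 to 339.7 CPM, they would lie wholly below. For shXBP1 clone 1, the CD59 values were 292, 312 and 306 CPM at 0 h, 169, 150.1 and 157 at 24 h, 136, 146 and 139 at 48 h and 130.3, 136 and 133 at 72 h. Those of shXBP1 clone 18 for CD59 were 330.4, 341 and 331 CPM at 0 h, 194, 186 and 184 at 24 h, 151, 155 and 154 at 48 h and 137, 148 and 125 at 72 h. Both shXBP1 clones fell at every time with no overlap. The late change was 0.28 (SE 0.03, adjusted p = 5.77e-11) in shIRE1 and -1.18 (SE 0.03, adjusted p = 5.57e-30) in shXBP1, and the difference was 1.46 (SE 0.04, adjusted p = 6.18e-28). By 24 h the difference was already 1.41 (SE 0.05, adjusted p = 6.69e-25). In shIRE1 the level then fell by 0.25 from 24 h to the late groups (adjusted p = 2.40e-09). The difference was also present with shIRE1 clone 1 alone at 48 h, 1.48 (SE 0.06, adjusted p = 1.61e-22), and with clone 3 alone at 72 h, 1.52 (SE 0.06, adjusted p = 3.44e-23). The other membrane regulators of complement did not share this: CD55 changed late by -1.23 in shIRE1 and 0.04 in shXBP1, and CD46 by -0.40 and -0.09 (adjusted p = 3.94e-25, 0.532, 1.67e-10 and 0.115). CD59 shares 5.96% of its exon bases with another annotated gene on its strand, which is not in the count table used here.

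GALNT10, a Golgi enzyme that starts O-linked sugar chains on proteins, rose in shIRE1 and fell slightly in shXBP1. In shIRE1 clone 1, GALNT10 stood at 105, 107 and 100.0 CPM at 0 h, 138, 136 and 144 at 24 h, 160.1, 161 and 168 at 48 h and 158, 160.1 and 160.2 at 72 h. The shIRE1 clone 3 libraries held GALNT10 at 90.6, 94.8 and 95.5 CPM at 0 h, 134, 145 and 139 at 24 h, 164, 162 and 161 at 48 h and 159, 159 and 163 at 72 h. No library after Dox overlapped the 0 h libraries. Clone 3 started lower than clone 1 and reached like levels. For shXBP1 clone 1, the GALNT10 values were 108, 107 and 108 CPM at 0 h, 106, 103 and 103 at 24 h, 99.6, 101 and 94.9 at 48 h and 91.9, 98.6 and 98.2 at 72 h. Those of shXBP1 clone 18 for GALNT10 were 106, 108 and 107 CPM at 0 h, 92.4, 92.8 and 95.5 at 24 h, 92.4, 90.5 and 95.3 at 48 h and 93.6, 94.4 and 97.7 at 72 h. Here every library after Dox lay below the 0 h libraries, by a small amount. The late change was 0.71 (SE 0.02, adjusted p = 1.86e-26) in shIRE1 and -0.17 (SE 0.02, adjusted p = 4.47e-07) in shXBP1, with a difference of 0.88 (SE 0.03, adjusted p = 3.63e-24). At 24 h the difference was 0.62 (SE 0.04, adjusted p = 6.45e-17), with shIRE1 clone 1 alone at 48 h 0.82 (SE 0.05, adjusted p = 8.52e-18), and with clone 3 alone at 72 h 0.94 (SE 0.05, adjusted p = 6.68e-20). Among its relatives GALNT3 fell late in shIRE1 by 0.98, GALNT1 by 0.65 and GALNT2 by 0.50, while GALNT7 rose by 0.53 on the log2 scale (adjusted p = 4.01e-19, 4.68e-15, 2.90e-13 and 6.76e-12). They come from a list of 9 relatives of GALNT10 and COL6A1, of which 4 rose and 3 fell late in shIRE1. Of all genes, 35.8% were called higher and 33.4% lower.

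TNFRSF10B, the death receptor DR5 that binds TRAIL and is known as a target of CHOP and p53, rose in shIRE1. In shIRE1 clone 1, TNFRSF10B stood at 208, 212 and 207 CPM at 0 h, 301, 292 and 306 at 24 h, 346, 350.4 and 355 at 48 h and 339, 342 and 334 at 72 h. The shIRE1 clone 3 libraries held TNFRSF10B at 213, 225 and 211 CPM at 0 h, 297, 319 and 308 at 24 h, 332, 349.6 and 342 at 48 h and 352, 345 and 364 at 72 h. The clones started level and no library after Dox overlapped those at 0 h. For shXBP1 clone 1, the TNFRSF10B values were 201, 200.4 and 198 CPM at 0 h, 209, 211 and 209.7 at 24 h, 212, 214 and 203 at 48 h and 216, 221 and 214 at 72 h. Those of shXBP1 clone 18 for TNFRSF10B were 171, 175 and 175 CPM at 0 h, 173, 159 and 160.4 at 24 h, 171, 172 and 179 at 48 h and 184, 187 and 206 at 72 h. In shXBP1 clone 1 the libraries after Dox lay slightly above those at 0 h, and in clone 18 only those labelled 72 h did. The late change was 0.70 (SE 0.02, adjusted p = 9.90e-26) in shIRE1 and 0.08 (SE 0.02, adjusted p = 0.00664) in shXBP1, with a difference of 0.62 (SE 0.03, adjusted p = 8.80e-19). At 24 h the difference was 0.52 (SE 0.04, adjusted p = 3.57e-14), with shIRE1 clone 1 alone at 48 h 0.71 (SE 0.05, adjusted p = 1.61e-15), and with clone 3 alone at 72 h 0.58 (SE 0.05, adjusted p = 3.88e-13). Within single shXBP1 clones, none of the 6 comparisons with 0 h was called, the lowest adjusted p being 0.0735. In the fit of all 48 libraries the 72 h rise was called in both, at 0.12 (SE 0.04, adjusted p = 0.0163) in clone 1 and 0.14 (SE 0.04, adjusted p = 0.00847) in clone 18, where 37.2% and 18.1% of all genes were called. The small late rise did not pass with no filter on low counts (adjusted p = 0.153), and the response did not pass the test of a difference between the clones of either shRNA. Without the doubted library of shXBP1 clone 18, the shXBP1 clones did differ by edgeR at 24 h, by 0.14 (SE 0.05, adjusted p = 0.0487). This call was gained in 2 of 13 fits with 1 library left out. Beside TNFRSF10B, 7 of 8 p53 target genes rose late in shIRE1 and 1 fell, CDKN1A by 0.95 and ZMAT3 by 1.29 upward on the log2 scale. In the same comparison 9 of 10 PERK-ATF4-CHOP genes fell, DDIT3, the gene of CHOP, by 1.12 (adjusted p = 3.55e-19, 1.26e-22 and 1.62e-23 for these 3 genes). In that comparison 35.8% of all genes were called higher and 33.4% lower. The medians of these lists were 0.83 and -0.88, against 0.03 for all genes. The 10 PERK-ATF4-CHOP genes were unlike between the shIRE1 clones. At 24 h 3 rose and 4 fell in clone 1, with a median of 0.0045, and 0 rose and 9 fell in clone 3, with a median of -1.02. Of all genes at 24 h, 32.4% were called higher and 29% lower in clone 1, and 22.8% and 23.3% in clone 3. The part of both lists in the rise of TNFRSF10B was not tested. Of the other TRAIL receptors, TNFRSF10C, at under 1 CPM at 0 h, had a late difference of 1.26 (SE 0.35, adjusted p = 0.00226). TNFRSF10B shares 7.52% of its exon bases with the antisense gene RHOBTB2, and whether reads were counted by strand is not given in the sources used here.

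BLOC1S1, a subunit of complexes that position lysosomes and form related organelles, and an mRNA often used as a readout of RIDD, did not rise in shIRE1 as a whole. In shIRE1 clone 1, BLOC1S1 stood at 20.4, 19.5 and 19.3 CPM at 0 h, 21.1, 22.9 and 26.4 at 24 h, 21.3, 21.1 and 21.4 at 48 h and 23.9, 22 and 23.0 at 72 h. The shIRE1 clone 3 libraries held BLOC1S1 at 29.4, 26.6 and 24.1 CPM at 0 h, 22.6, 20.9 and 22.2 at 24 h, 17.9, 18.8 and 19.6 at 48 h and 18.6, 18.1 and 17.8 at 72 h. As labelled, it lay above its 0 h libraries after Dox in clone 1 and below them in clone 3. The groups labelled clone 1, 72 h and clone 3, 48 h are libraries against their label. Set against the 0 h libraries of the other clone, those labelled clone 1, 72 h would lie below and those labelled clone 3, 48 h would overlap. For shXBP1 clone 1, the BLOC1S1 values were 19.2, 15.8 and 17.4 CPM at 0 h, 15.7, 17.8 and 14.8 at 24 h, 13.8, 13.3 and 12.9 at 48 h and 14.4, 12.6 and 12.6 at 72 h. Those of shXBP1 clone 18 for BLOC1S1 were 21.2, 21.1 and 19.8 CPM at 0 h, 14.4, 13.7 and 14.5 at 24 h, 13.6, 14.8 and 15.9 at 48 h and 15.4, 15.3 and 10.4 at 72 h. In shXBP1 it lay below the 0 h libraries at 48 and 72 h in both clones, and at 24 h in clone 18. At 24 h the change was 0.25 (SE 0.07, adjusted p = 0.00718) in shIRE1 clone 1 and -0.29 (SE 0.08, adjusted p = 0.0056) in clone 3. The 24 h responses of these clones differed by 0.54 (SE 0.14, adjusted p = 0.00238), and the rise in clone 1 at 24 h rested in part on replicate 3, without which it was 0.15 (adjusted p = 0.0643). At 48 h in clone 1 it was 0.11 (SE 0.07, adjusted p = 0.197), and at 72 h in clone 3 -0.56 (SE 0.08, adjusted p = 1.39e-05). The late change was -0.18 (SE 0.06, adjusted p = 0.00606) in shIRE1 and -0.47 (SE 0.06, adjusted p = 5.73e-08) in shXBP1, so that the difference of 0.29 (SE 0.08, adjusted p = 0.00327) is between a smaller and a larger fall. Taken by clone, against both shXBP1 clones, shIRE1 clone 1 alone gave 0.55 (SE 0.12, adjusted p = 2.09e-04) at 48 h and clone 3 alone -0.05 (SE 0.12, adjusted p = 0.765) at 72 h. Of its 7 complex partners, 3 rose and 2 fell late in shIRE1, BLOC1S6 by 0.98 downward on the log2 scale (adjusted p = 2.57e-21). Of all genes, 35.8% were called higher and 33.4% lower there. BLOC1S1 shares 29.8% of its exon bases with AC009779.3, a gene on the same strand, which went from 4.66 ± 0.213 to 2.31 ± 0.219 CPM between 0 and 24 h in shIRE1 clone 1 and from 2.16 ± 0.492 to 1.76 ± 0.135 in clone 3 (SD, n = 3). By edgeR this fall was called in clone 1 (-1.02, adjusted p = 3.65e-07) but not in clone 3 (-0.31, adjusted p = 0.165). At 48 and 72 h, as labelled, AC009779.3 was lower in clone 1 (-0.60 and -0.74) and higher in clone 3 (0.58 and 0.67). In shXBP1 clone 1 it was lower at every time (-0.76, -0.84 and -0.64), and in clone 18 it was not called. Its part in the BLOC1S1 counts was not tested.

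HGSNAT, the lysosomal enzyme that acetylates heparan sulfate during its breakdown, differed between clones already before Dox. In shIRE1 clone 1, HGSNAT stood at 9.68, 9.07 and 9.45 CPM at 0 h, 14.5, 13.3 and 14.5 at 24 h, 17.8, 19 and 19.5 at 48 h and 18.0, 17.5 and 19.1 at 72 h. The shIRE1 clone 3 libraries held HGSNAT at 24.3, 21.4 and 22.5 CPM at 0 h, 13.0, 13.1 and 14.2 at 24 h, 25.9, 24.1 and 24.9 at 48 h and 22.6, 21.6 and 23.0 at 72 h. At 0 h it was low in clone 1 of both kinds and high in clones 3 and 18. For shXBP1 clone 1, the HGSNAT values were 10.4, 9.56 and 9.88 CPM at 0 h, 14.4, 16.2 and 15 at 24 h, 12.9, 14.0 and 12.6 at 48 h and 13.8, 14.8 and 13.9 at 72 h. Those of shXBP1 clone 18 for HGSNAT were 25.7, 25.8 and 26.2 CPM at 0 h, 21.6, 20.9 and 22.1 at 24 h, 18.4, 20.2 and 18.7 at 48 h and 18.9, 18.2 and 13.3 at 72 h. At 24 h it rose in both clones 1 and fell in shIRE1 clone 3, and the shIRE1 clones met at like levels. The 0 h difference was -1.27 (SE 0.08, adjusted p = 1.19e-15) between the shIRE1 clones and -1.38 (SE 0.08, adjusted p = 1.15e-16) between the shXBP1 clones. ERN1 differed in the same order at 0 h, by -1.52 and -1.14, and so did the median of the 10 PERK-ATF4-CHOP genes, by -1.04 and -0.60, with 10 and 6 of them lower in clone 1. Of all genes, 21.4% and 26.8% were called lower in these comparisons. The late change of HGSNAT was 0.52 (SE 0.05, adjusted p = 9.52e-12) in shIRE1 and -0.04 (SE 0.05, adjusted p = 0.592) in shXBP1, with a difference of 0.55 (SE 0.07, adjusted p = 1.16e-08). These means join unlike clones. In shXBP1 the change at 48 h was 0.39 in clone 1 and -0.44 in clone 18. In shIRE1 it was 1.00 at 48 h in clone 1 and -0.03 at 72 h in clone 3. The direction of the difference between shIRE1 and shXBP1 turned with time and clone. At 24 h this difference was -0.26 (SE 0.08, adjusted p = 0.00992), a call that was lost with no filter on low counts (adjusted p = 0.0952). With shIRE1 clone 1 alone at 48 h it was 1.01 (SE 0.10, adjusted p = 6.35e-11), and with clone 3 alone at 72 h 0.04 (SE 0.10, adjusted p = 0.769).

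COL6A1, a chain of collagen VI, was scarce but rose late in shIRE1. It had 14 and 15 counts over the 3 libraries at 0 h of shIRE1 clones 1 and 3, 36 and 24 at 24 h, 60 and 108 at 48 h, and 46 and 59 at 72 h. In shXBP1 clone 1 it had 17, 19, 19 and 21 counts over the same times, and in clone 18 it had 40, 37, 41 and 24. The late groups of shIRE1 did not overlap their 0 h libraries, and those of shXBP1 did. The late change was 1.97 (SE 0.34, adjusted p = 2.80e-06) in shIRE1 and -0.17 (SE 0.35, adjusted p = 0.742) in shXBP1, with a difference of 2.14 (SE 0.51, adjusted p = 4.15e-04). At 24 h the difference was not called, at 1.05 (SE 0.59, adjusted p = 0.161). SPARC, a secreted protein that binds collagen, went the other way. It had 27 and 32 counts at 0 h of shIRE1 clones 1 and 3, 35 and 63 at 24 h, 19 and 9 at 48 h, and 15 and 9 at 72 h, each 9 being 3 counts in each library. In shXBP1 clone 1 it had 18, 29, 18 and 30 counts, and in clone 18 it had 27, 28, 21 and 23. Only the libraries labelled shIRE1 clone 3 at 48 and 72 h lay wholly below their 0 h libraries. The late change was -1.39 (SE 0.30, adjusted p = 6.86e-05) in shIRE1 and -0.07 (SE 0.29, adjusted p = 0.884) in shXBP1. The difference with shIRE1 clone 1 alone at 48 h was -0.34 (SE 0.57, adjusted p = 0.659), and with clone 3 alone at 72 h -2.21 (SE 0.61, adjusted p = 0.00231). Beside these, the 4 fibroblast or stromal markers summed to between 0.0881 and 1.83 CPM in a library, with COL1A1 at up to 44 counts and DCN at 0, and their part in the COL6A1 and SPARC counts was not tested.

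Within single clones, as labelled, edgeR called the following members against 0 h. In shIRE1 clone 1, 5 of 6 tested rose and 0 fell at 24 h (61.4%, 32.4% and 29% of all genes called, called higher and called lower), 5 rose and 0 fell at 48 h (65.4%, 33.9% and 31.5%, the shares being given in this order throughout), and 6 rose and 0 fell at 72 h (63.6%, 32.5% and 31.1%), the last from libraries against their label. In shIRE1 clone 3, with 7 tested, 3 rose and 2 fell at 24 h (46.2%, 22.8% and 23.3%), 3 and 2 at 48 h (63.2%, 31.6% and 31.6%), from libraries against their label, and 4 and 2 at 72 h (60.2%, 29.7% and 30.5%). In shXBP1 clone 1, with 5 tested, 1 rose and 1 fell at 24 h (26.7%, 13.9% and 12.8%), 1 and 3 at 48 h (32%, 16.6% and 15.5%), and 1 and 3 at 72 h (33.6%, 16.8% and 16.8%). In shXBP1 clone 18, with 7 tested, none rose, and 2 fell at 24 h (1.59%, 0.291% and 1.3%; BLOC1S1 and CD59), 4 at 48 h (5.78%, 2.28% and 3.5%) and 4 at 72 h (9.96%, 4.41% and 5.55%), HGSNAT and GALNT10 being the further members. These counts include COL6A1 in both shIRE1 clones, which met the count minimum in 0 of 3 libraries at 0 h and in 3 of 3 at 48 h and so passed the filter through the groups where it is high, and SPARC in clone 3, which met it in 3 of 3 libraries at 24 h and in 0 at 48 and 72 h. Leaving both out, 4 members rose in clone 1 at 48 h and 5 at 72 h, and in clone 3 at 72 h 3 rose and 1 fell. In shIRE1 clone 3 the members that fell were BLOC1S1 with HGSNAT at 24 h and BLOC1S1 with SPARC at 48 and 72 h. In shXBP1 clone 1 HGSNAT was the member that rose. With replicate 3 of the 72 h group of shXBP1 clone 18 left out, 4 members were called lower at 24 h in that clone in place of 2, since HGSNAT at -0.27 (adjusted p = 0.0313) and GALNT10 at -0.19 (adjusted p = 0.018) also passed. In that fit 4.78% of all genes were called at 24 h, 1.46% higher and 3.33% lower, against 1.59% with the library kept. Without any single 0 h or 24 h library of that clone only CD59 was called. At 48 h the 4 calls fell to 1 without any single 0 h library or without replicate 1 or 2 of 48 h, and at 72 h to 2 without replicate 1 or 2 of 0 h. At 0 h, 2 members were higher and 2 lower in shIRE1 clone 1 than in clone 3 (40.6%, 19.2% and 21.4%), and 1 was higher and 4 lower in shXBP1 clone 1 than in clone 18 (51.3%, 24.5% and 26.8%). The last 5 calls became 4, 3 or 2 without replicate 1, 2 or 3 of shXBP1 clone 1 at 0 h and 2 or 3 without replicate 1 or 2 of clone 18 at 0 h.

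A further list of 9 mRNAs reported as cut by IRE1, 8 of them tested, was set beside the members. Late, 3 rose and 3 fell in shIRE1, none rose and 4 fell in shXBP1, and in the difference 6 were higher and 1 lower, with a median of 0.50 against 0.04 for all genes. Of all genes, 35.8% were called higher and 33.4% lower late in shIRE1, 19.6% and 17.9% in shXBP1, and 31.1% and 29.8% in the difference. These shares stand beside all late counts of this paragraph. DGAT2, which completes triglyceride synthesis, changed by 2.13 (SE 0.06, adjusted p = 2.93e-29) in shIRE1 and -0.94 (SE 0.06, adjusted p = 4.17e-16) in shXBP1. TAPBP, the tapasin of peptide loading, changed by 0.58 (SE 0.06, adjusted p = 6.98e-12) and -0.75 (SE 0.05, adjusted p = 2.64e-14). TGOLN2, a trans-Golgi protein, fell in both, by 0.24 and 0.78 on the log2 scale (adjusted p = 4.71e-11 and 5.64e-26). Of 20 ER genes known to be induced by XBP1s, 20 fell late in shIRE1, with a median of -1.15, and 18 fell and 1 rose in shXBP1, with a median of -0.56. HERPUD1, a part of the ER degradation machinery, changed by -1.68 (SE 0.06, adjusted p = 1.80e-26) and -0.28 (SE 0.06, adjusted p = 2.16e-04), and DNAJB11, an ER chaperone partner, by -1.26 (SE 0.03, adjusted p = 2.13e-32) and 0.07 (SE 0.03, adjusted p = 0.0456). Of 12 genes for decay and rejoining of cut RNA, 2 rose and 6 fell late in shIRE1, and 2 rose and 3 fell in shXBP1. SKIV2L, a helicase that works with the RNA exosome, was higher in the difference by 0.60 (SE 0.06, adjusted p = 4.19e-11).

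The genes most like each member over the 12 changes within clones were found by Pearson correlation among 12163 genes. The 12 values share 0 h controls, and 3 of them rest on doubted libraries, so these are descriptions. CD59 was closest to SLC23A1 (0.987), DNAH17-AS1 (0.982) and TMEM165 (0.979). GALNT10 was closest to USP20 (0.995), WDR59 (0.994) and RPS6KA1 (0.993). TNFRSF10B was closest to IVD (0.990), MAP3K12 (0.987) and KPNA5 (0.985). BLOC1S1 was closest to CA11 (0.98), PLTP (0.979) and EML2 (0.973). HGSNAT was closest to AC004130.1 (0.987), ITGB8 (0.969) and TK2 (0.969). Over the 9 changes that do not rest on doubted libraries, these 15 correlations were between 0.955 and 0.994. The genes were picked over all 12 changes, which include these 9, and were not picked again, so high values here follow in part from that choice.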

How the data were processed

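RNA was measured by stranded poly(A) RNA-seq in 48 libraries, 16 groups of 3 by clone and labelled hours of Dox. The authors deposited raw read counts per gene for 58302 genes and a table of log2 values for 18401 genes, which equals edgeR's log2 CPM (prior count 2, largest difference 4.97e-14); CPM are counts scaled to a common library size by TMM. The submitters' processing notes name GSNAP 2013-10-10, R 4.1.3, edgeR 3.32.1 and limma 3.46.0. They name GRCh37 and hg19, while the methods of a related experiment name GRCh38, so the build of the counts is not settled. Positions and sequences here are those of GENCODE 44 on GRCh38, which holds the identifiers of all 8 members.

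Depth was 19177855 to 40767202 counts per library (median 30776246.5), and 1 count was worth at most 0.0521 CPM. The deposited counts were tested with the edgeR 4.0.16 quasi-likelihood test in R 4.3.3, with TMM scaling (factors 0.924 to 1.09), filterByExpr (minimum count 10, minimum total 15) and Benjamini-Hochberg adjustment over all genes tested, at an adjusted p of 0.05. Changes within a clone used its 12 libraries, and comparisons between shRNAs or clones used all 48. The fit on all 48 tested 18445 genes. Scripts were tested on simulated data. Alternatives were RLE factors, no filter on low counts, DESeq2 1.42.0, limma 3.58.1 on the deposited log2 table, a replicate block, other sets of libraries or clones in the fit, and each library left out in turn.

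Members and lists were chosen with earlier results of these data known. All members were named. Of each list at most 4 genes were named, from those called with the largest shIRE1 minus shXBP1 differences at 72 h, or a relative of a member, and for likeness the 3 genes with the highest correlation among genes tested in all 4 clones with a mean log2 CPM above 1. The late comparisons, the comparisons of 1 shIRE1 clone with both shXBP1 clones and the fit of all 48 libraries within clones were added after the data were seen. A further 8 comparisons of successive times within a clone were run, seen and not reported, because for shIRE1 they rest on libraries against their labels. The labels call the replicates separate flasks of 1 clone, so p-values measure the spread between flasks.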

Additional observations from a re-analysis of the deposited data

Results flagged for a closer look

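The change from 0 h differed between shIRE1 and shXBP1 for several members, by edgeR tests of the difference itself on all 48 libraries. The log2 differences at 24 h past an adjusted p of 0.05 were those of BLOC1S1 (0.31), CD59 (1.41), GALNT10 (0.62), HGSNAT (-0.26) and TNFRSF10B (0.52). At 48 h they were those of BLOC1S1 (0.24), CD59 (1.34), COL6A1 (2.19), GALNT10 (0.89), HGSNAT (0.58), SPARC (-1.15) and TNFRSF10B (0.67). At this time the calls of BLOC1S1 and SPARC were lost in 13 and 14 of 25 fits with 1 library left out, both with no filter on low counts (adjusted p = 0.0684 and 0.0998), and that of SPARC with DESeq2 (adjusted p = 0.0727). At 72 h they were those of BLOC1S1 (0.34), CD59 (1.58), COL6A1 (2.09), GALNT10 (0.86), HGSNAT (0.53), SPARC (-1.51) and TNFRSF10B (0.57). The last 2 sets of values rest in part on libraries against their clone labels.

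The response also differed between the clones of one shRNA, by the same kind of test. For shIRE1 clone 1 minus clone 3 the log2 differences at 24 h were those of BLOC1S1 (0.54), GALNT10 (-0.15) and HGSNAT (1.34), where 28.2% of all genes were called. As labelled, they were those of BLOC1S1 (0.62), CD59 (0.29), GALNT10 (-0.15) and HGSNAT (0.86) at 48 h and of BLOC1S1 (0.77), GALNT10 (-0.16) and HGSNAT (0.97) at 72 h, with 30.8% and 27.5% of all genes called, and both sets rest on libraries against their label. The GALNT10 calls were lost with no filter on low counts at 24, 48 and 72 h (adjusted p = 0.453, 0.364 and 0.352), and at each time without replicate 2 of clone 1 at 0 h or replicate 1 of clone 3 at 0 h. For shXBP1 clone 1 minus clone 18 they were those of BLOC1S1 (0.43) and HGSNAT (0.88) at 24 h, HGSNAT (0.84) at 48 h and HGSNAT (1.14) at 72 h, with 17.1%, 24.1% and 24.6% of all genes called. The BLOC1S1 call at 24 h was lost in 7 of 13 fits with 1 library left out. With replicate 3 of the 72 h group of clone 18 left out, HGSNAT at 72 h was 0.96 (adjusted p = 5.40e-10).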

How the results depend on the processing

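Of 531 recomputed counts of called members, 497 were within 1.5 times the reported count. Most of the others concerned shXBP1 clone 18. At 24 h, where 2 members were called, there was 1 with RLE factors, with limma or with the replicate block, and 4 with all 48 libraries or only the 6 compared in the fit. At 48 h, where 4 were called, there were 2 with the replicate block. At 72 h, where 4 were called, there was 1 with only the 6 libraries compared in the fit. Between the shXBP1 clones at 0 h, 5 became 3 with no filter on low counts. With single libraries left out, the counts ran from 1 to 4 at 24 h, 1 to 4 at 48 h and 2 to 4 at 72 h in clone 18, and between the shXBP1 clones from 1 to 3 at 24 h, 1 to 2 at 72 h and 2 to 5 at 0 h. The cause was not tested.

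Direction turned for some differences between shRNAs when clones were taken singly. HGSNAT at 24 h became 0.85 for shIRE1 clone 1 against shXBP1 clone 18 and 0.41 for clone 1 against both. For shIRE1 clone 3 against shXBP1 clone 1 it became -0.27 at 48 h and -0.53 at 72 h. BLOC1S1 became -0.17, -0.12 and -0.15 at 24, 48 and 72 h for clone 3 against shXBP1 clone 1, -0.0204 at 48 h against clone 18, and -0.0705 and -0.0466 at 48 and 72 h against both. SPARC at 48 h became 0.0238 for shIRE1 clone 1 against shXBP1 clone 18. CD59, GALNT10 and TNFRSF10B kept their direction and their call in the differences at all 3 times under these settings. COL6A1 kept its direction, but against shXBP1 clone 1 its call was lost for shIRE1 clone 1 at 48 h (1.73, adjusted p = 0.104 by edgeR) and 72 h (1.47, 0.181) and for clone 3 at 72 h (1.26, 0.216). At 48 h the calls of BLOC1S1 and SPARC were lost in 13 and 14 of 25 fits with 1 library left out.

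Libraries of a clone with the same replicate number were on average not more alike than others. Their deviations from the group means had mean correlations of -0.0798 to -0.0152 over the clones. For libraries with other numbers these means were 0.00597 to 0.0431. Single pairs with the same number ranged from -0.769 to 0.612. The replicate block lost 5 calls of single members and gained 0, all 5 in shXBP1 clones.

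With a minimum difference of 1.5 in place of 1 for the clone markers, 9 genes were left for shIRE1, of which 0 were nearer to clone 1 in the libraries labelled clone 1 at 72 h and 8 in those labelled clone 3 at 48 h.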
